A study of Mus musculus with 32 samples.

Results

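The genes described are 10 that act in the presentation of peptides on MHC class I molecules, out of 50686 genes in the expression tables. They are the classical heavy chains H2-K1 and H2-D1, the light chain B2m, the peptide transporter subunits Tap1 and Tap2, the loading factor Tapbp, the transactivator Nlrc5, and the immunoproteasome subunits Psmb8, Psmb9 and Psmb10. The genes were listed for their known function, but with earlier results of these data known.

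PolyA RNA was sequenced from crypt cells of the intestine of C57BL6 mice, sorted by the brightness of an eGFP reporter at Lgr5, a marker of stem cells. Cells with high eGFP are called stem cells here and cells with low eGFP progenitors. Both gates also required EpCAM, low or no CD24, and no staining for CD31, Ter119, CD45 or the dead cell dye 7AAD. Deficient mice carried Cpt1a fl/fl with Villin-CreER and Lgr5-GFP-IRES-CreER, and wild-type mice carried the same 2 Cre transgenes without the floxed alleles. Villin-CreER acts throughout the intestinal epithelium, so deletion was not limited to the sorted cells, and no group lacked Cre. Mice of each genotype were fed high-fat chow or its matched control, called the control diet here. Crossing population, genotype and diet gives 8 groups with 4 libraries in each, 16 of stem cells and 16 of progenitors. The labels do not say whether libraries came from separate mice, so p-values measure the spread between libraries, which may be technical. Ages and doses of inducer are not in the labels.

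A class I molecule consists of a heavy chain and β2-microglobulin, with a short peptide held in the groove of the heavy chain. Proteasomes cut cytosolic proteins into peptides, TAP moves these into the endoplasmic reticulum, and tapasin and chaperones help to load them before the complex travels to the surface. Interferons, above all interferon-gamma, raise most of these genes together, and NLRC5 is the transactivator of their promoters. In the intestine the complex lets CD8 T cells and intraepithelial lymphocytes inspect epithelial cells.

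In GRCm38, 7 of the 10 genes lie on chromosome 17, in the MHC region. Psmb9 (34181987 to 34187764), Tap1 (34187553 to 34197225), Psmb8 (34197721 to 34201454) and Tap2 (34203527 to 34216321) stand side by side there. B2m lies on chromosome 2 (122147686 to 122153083), and Nlrc5 and Psmb10 lie on chromosome 8. RefSeq promoter windows, with 250 bases before and 50 after the start of the gene, were matched by symbol for 8 of the 10 genes. Because Tap1 and Psmb9 are read away from each other, their windows share 275 bases. The 250 bases before the start are shown for 4 genes, since H2-K1 and H2-D1 share a motif, B2m holds another, and the Tap1 window overlaps that of Psmb9. H2-D1 was added after its motifs were seen. Sequences are from RefSeq on GRCm38.p6 and run along the gene's own strand, and capitals mark the motif matches.
H2-K1, chr17:34000348-34000597, minus strand: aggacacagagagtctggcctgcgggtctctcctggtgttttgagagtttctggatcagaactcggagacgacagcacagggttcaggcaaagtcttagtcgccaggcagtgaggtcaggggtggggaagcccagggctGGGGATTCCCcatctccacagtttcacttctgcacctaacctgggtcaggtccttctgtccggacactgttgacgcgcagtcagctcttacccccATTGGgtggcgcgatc
H2-D1, chr17:35262844-35263093, plus strand: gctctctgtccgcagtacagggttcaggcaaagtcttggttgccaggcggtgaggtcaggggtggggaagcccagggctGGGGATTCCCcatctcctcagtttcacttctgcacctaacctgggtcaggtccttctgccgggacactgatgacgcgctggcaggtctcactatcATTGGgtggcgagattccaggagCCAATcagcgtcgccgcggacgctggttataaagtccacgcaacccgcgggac
B2m, chr2:122147437-122147686, plus strand: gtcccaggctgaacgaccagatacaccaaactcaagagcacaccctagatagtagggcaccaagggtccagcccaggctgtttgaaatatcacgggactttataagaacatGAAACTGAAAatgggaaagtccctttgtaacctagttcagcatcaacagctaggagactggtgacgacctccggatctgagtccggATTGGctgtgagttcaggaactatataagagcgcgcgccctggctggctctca
Tap1, chr17:34187306-34187555, plus strand: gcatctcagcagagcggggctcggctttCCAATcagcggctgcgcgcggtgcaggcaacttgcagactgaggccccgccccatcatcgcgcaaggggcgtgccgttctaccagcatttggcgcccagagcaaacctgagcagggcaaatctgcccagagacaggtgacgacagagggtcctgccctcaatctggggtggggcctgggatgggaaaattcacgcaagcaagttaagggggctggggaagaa
A set of 5 motifs was searched on both strands of the whole windows. The kappaB motif, GGG and TTCCC with 2 free letters between them, was found in H2-K1 and H2-D1, in both with the letters GGGGATTCCC, and 1.75% of the 32851 promoters in the table hold it. The CCAAT box CCAAT was found in 6 of the 8 genes and in 37.4% of all promoters. The Tap1 and Psmb9 matches are the same bases within their shared stretch, counted for both genes. The windows are thus not independent of each other. Matches to the interferon-stimulated element, GAAA and GAAA with 2 free letters between them, occurred in B2m, as GAAACTGAAA 139 to 130 bases before the start, and in 3.44% of all promoters. The GAS element TTCNNNGAA occurred in Psmb8 and in 8.3% of all promoters. The cyclic AMP element TGACGTCA was found in 0 of the 8 windows and in 1.79% of all promoters. Within a window no motif match overlapped another, and a match describes letters alone.

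The libraries held 3307711 to 7337425 estimated counts in total (median 5655066.5). Cpt1a, the target of the deletion, measured 18.82 to 30.57 CPM in deficient libraries and 118.8 to 346.6 CPM in wild-type libraries, where CPM is TMM-scaled counts per 1000000. Epcam was present in every library, at 1904 to 2673 CPM in stem cells and 2127 to 2762 CPM in progenitors. Lgr5 ran from 282.3 to 515.2 CPM in stem cells and from 11.93 to 85.71 CPM in progenitors. Ptprc, the gene of CD45, reached at most 0.6138 CPM. The T cell genes Cd3e and Cd8a were at 0 in 29 and 28 of the 32 libraries, and the macrophage gene Adgre1 was at 0 in 31. Some other markers of lymphocytes and myeloid cells were present in every library. Lck measured 1.071 to 7.791 CPM, Itgae 1.221 to 6.976 CPM and Itgam 5.426 to 34.27 CPM over all libraries. The myeloid marker Lyz2 reached 4.687 CPM and was at 0 in 7 libraries.

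Corrected for gene length, as TPM, the share of transcripts in a library, the 10 genes spanned a wide range of levels. Median levels in stem cells were 849 TPM for B2m, 606.8 TPM for H2-D1 and 544.7 TPM for H2-K1. Psmb10, Tapbp and Psmb8 followed at 309.4, 230.5 and 185.3 TPM. Psmb9 stood at 79.79 TPM, Tap2 at 18.97 TPM, Tap1 at 15.34 TPM and Nlrc5 at 0.86 TPM. The transcripts of the final complex were therefore the most abundant and that of the transactivator the scarcest. In progenitors the order was the same except that Psmb8 (191.2 TPM) stood above Tapbp (188.7 TPM).

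**Figure D1:**
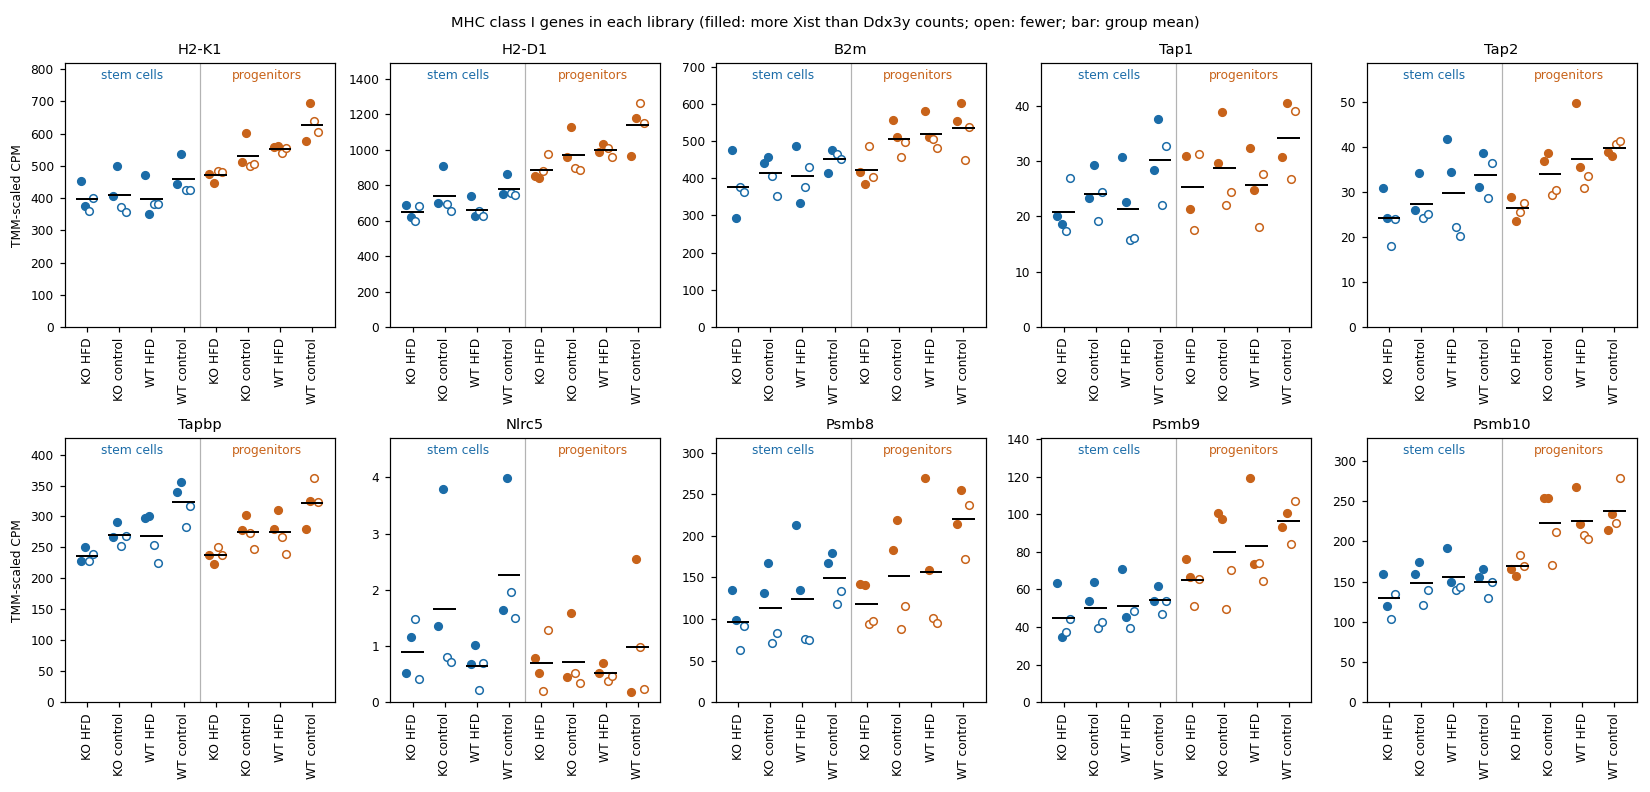
Each panel shows 1 gene, with 1 point per library in TMM-scaled CPM on an axis from 0, stem cells left and progenitors right of the grey line. KO is Cpt1a-deficient, WT wild type and HFD high-fat diet, bars are means of 4 libraries, and filled points have more Xist than Ddx3y counts. The KO HFD group has the lowest mean and the WT control group the highest among progenitors for 9 of the 10 genes, Nlrc5 left aside. How often all genes show this order was not computed.

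The first comparison set all 16 stem cell libraries against all 16 progenitor libraries. In stem cells 6 of the 10 genes were lower (H2-K1, H2-D1, B2m, Tap2, Psmb9 and Psmb10), 1 was higher (Nlrc5) and 3 did not pass (Tap1, Tapbp and Psmb8). The threshold here and below was an adjusted p of 0.05 in edgeR's quasi-likelihood test over all genes. The median log2 fold change of the 10 genes was -0.33, against 0.02 over the 13088 genes tested. Between these populations 63.5% of all genes passed and 31% of all genes were lower in stem cells. A count of 7 of 10 passing is thus close to the whole table, with 6 of 10 on the lower side. In bulk RNA, fewer cells of a type and less RNA per cell cannot be told apart.

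The heavy chains carry the peptide groove. H2-D1 measured 601.1 to 907.4 CPM in stem cells with a median of 692.5, against 840.2 to 1262 CPM in progenitors with a median of 971.3. Most stem cell libraries, 14 of 16, lay below every progenitor library, and 11 progenitor libraries lay above every stem cell library. H2-D1 had a log2 fold change of -0.49 ± 0.05 (SE; edgeR adjusted p = 2.45e-10), or 0.71 times the progenitor level. H2-K1 measured 352.5 to 536 CPM in stem cells with a median of 403, against 447.3 to 694.2 CPM in progenitors with a median of 546.9. Here 12 of 16 stem cell libraries lay below every progenitor library, and the log2 fold change was -0.39 ± 0.05 (edgeR adjusted p = 6.51e-08).

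Heavy chain genes resemble each other, and the counts depend on how reads were divided among them. Of the 50-base stretches in H2-K1 transcripts 9.63% also occur in another gene, most often H2-Q10, and 12.8% of those of H2-D1 do, most often in H2-Q1. The sum of H2-K1, H2-D1 and 6 H2-Q genes, of which H2-K1 and H2-D1 made up 87.4 to 93.2% in every library, had a log2 fold change of -0.47 ± 0.05 (edgeR adjusted p = 1.43e-09). The lower heavy chain level in stem cells was also present in the sum. Since H2-K1 and H2-D1 dominate the sum, it could hardly differ and does not settle how reads were divided.

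B2m, the light chain shared by all class I molecules, measured 293.8 to 487.6 CPM in stem cells with a median of 421.3, against 383.6 to 601.2 CPM in progenitors with a median of 500.3. The log2 fold change of B2m was -0.26 ± 0.06 (edgeR adjusted p = 0.00036), a smaller change than for either heavy chain. The difference between the chains was tested as a ratio of TPM, which does not depend on how libraries are scaled. The H2-D1 to B2m ratio had a median of 0.778 in stem cells and 0.881 in progenitors, a log2 difference of -0.23 (permutation test within genotype and diet, two-sided, 100000 draws, p = 0.00076, adjusted p = 0.0019 over 5 ratios). The H2-K1 to B2m ratio had medians of 0.652 and 0.728 in stem cells and progenitors, a log2 difference of -0.13 (permutation adjusted p = 0.0332). Libraries overlapped, from 0.579 to 0.831 in stem cells and 0.621 to 0.944 in progenitors for H2-K1 to B2m. Medians of both heavy chains were thus lower relative to the light chain in stem cells. These ratio tests were chosen after the log2 fold changes were known, and their p-values do not allow for that choice.

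Tap1 and Tap2 form the transporter that carries peptides into the endoplasmic reticulum. Tap2 measured 17.96 to 41.9 CPM in stem cells with a median of 27.35, against 23.59 to 49.73 CPM in progenitors with a median of 34.55. Tap2 had a log2 fold change of -0.24 ± 0.09 (edgeR adjusted p = 0.0207), and the libraries of both populations overlapped widely. Tap1 had an almost equal log2 fold change of -0.25 with a larger error of 0.12 and did not pass (edgeR adjusted p = 0.062). It passed in 8 of 32 fits with a library left out (adjusted p = 0.0169 to 0.0441), with libraries lettered in column order. These left out stem cell library d of the deficient high-fat, a of the wild-type high-fat or b of either control group, or progenitor library c of any group. Tapbp encodes tapasin, which bridges the transporter and the empty class I molecule. It had a log2 fold change of -0.01 ± 0.05 with a 95% interval from -0.11 to 0.08, and libraries of both populations covered the same range, 224.9 to 355.9 CPM in stem cells and 224 to 361.4 CPM in progenitors.

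Nlrc5, the transactivator, had the opposite sign. It measured 0.215 to 3.982 CPM in stem cells with a median of 1.09, against 0.1766 to 2.548 CPM in progenitors with a median of 0.5173. The log2 fold change was 0.78 ± 0.34 (edgeR adjusted p = 0.0469), resting on 1 to 26 counts per library. This call was lost without any 1 of 20 of the 32 libraries, where the log2 fold change lay between 0.58 and 0.80, and DESeq2 gave an adjusted p of 0.0567. In stem cells these were libraries b and c of the deficient high-fat, b of the deficient control, a, b and d of the wild-type high-fat and b and c of the wild-type control group. In progenitors they were a, b and c of the deficient high-fat group and a, c and d of each of the other 3 groups.

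The immunoproteasome subunits replace the catalytic subunits of the constitutive core, Psmb8 in place of Psmb5, Psmb9 in place of Psmb6 and Psmb10 in place of Psmb7. Psmb9 showed the largest drop of the 10 genes, with 34.7 to 70.78 CPM in stem cells (median 47.6) against 49.83 to 119 CPM in progenitors (median 75.2). That is a log2 fold change of -0.68 ± 0.11 (edgeR adjusted p = 4.96e-06), or 0.623 times the progenitor level. Psmb10 measured 103.5 to 192.3 CPM in stem cells (median 145.9) against 156.7 to 278.2 CPM in progenitors (median 213.1), with a log2 fold change of -0.54 ± 0.07 (edgeR adjusted p = 4.75e-08). In stem cells 11 of 16 libraries lay below every progenitor library for Psmb10, and 9 of 16 did for Psmb9. Psmb8 measured 62.75 to 212.8 CPM in stem cells (median 124.6) against 87.63 to 268.9 CPM in progenitors (median 150.5), and its log2 fold change of -0.40 ± 0.18 did not pass (edgeR adjusted p = 0.0583; DESeq2 adjusted p = 0.0473). It passed in 7 of 32 fits with a library left out (edgeR adjusted p = 0.0146 to 0.0499), without stem cell libraries a of either high-fat group or b of the deficient control group, or without progenitor libraries c or d of the deficient control or wild-type high-fat groups.

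The constitutive core fell as well, in 14 of its 14 subunits under TMM scaling, with a median log2 fold change of -0.38, and in 7 of 14 on TPM in limma, with a median of -0.10. Ratios of an immunoproteasome subunit to its counterpart separated the subunits. The Psmb9 to Psmb6 ratio of TPM had a median of 0.109 in stem cells and 0.165 in progenitors, a log2 difference of -0.47 (permutation p = 9e-05, adjusted p = 0.00045). For Psmb10 to Psmb7 the medians were 2.71 in stem cells and 3.1 in progenitors, a log2 difference of -0.18 (permutation adjusted p = 0.011). The Psmb8 to Psmb5 ratio had medians of 0.454 in stem cells and 0.47 in progenitors, a log2 difference of -0.01 that did not pass (permutation adjusted p = 0.964). The 5 ratio tests, those of the heavy chains included, were chosen after the values of these genes were known.

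**Figure D2:**
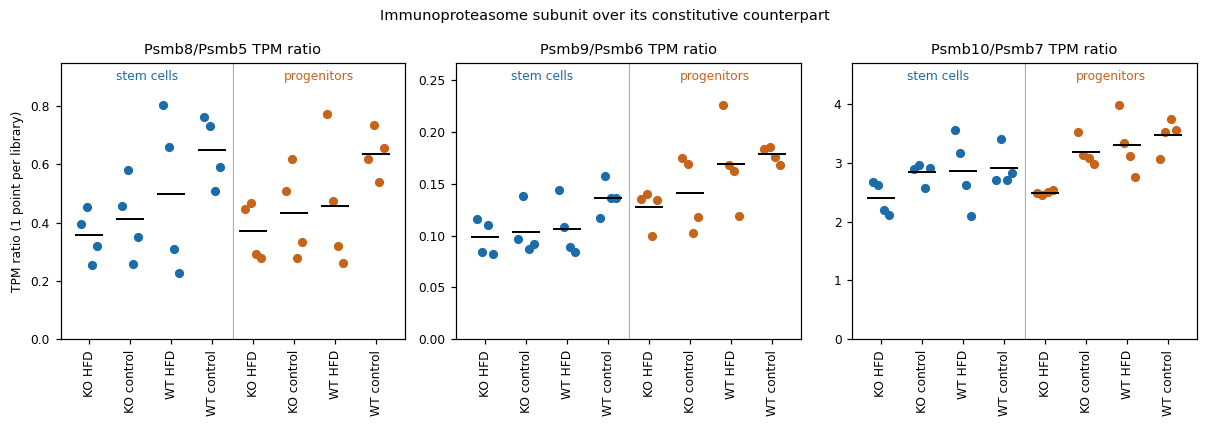
Points are single libraries and bars group means of the TPM ratio of each immunoproteasome subunit to the constitutive subunit it replaces, on axes from 0, stem cells left of the grey line and progenitors right. The Psmb9 to Psmb6 ratio runs from 0.0824 to 0.158 in stem cells and from 0.0999 to 0.226 in progenitors, while the Psmb8 to Psmb5 ratio covers about the same span in both.

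Other genes of the pathway were examined as lists. Of 21 further class I heavy chain genes 16 were expressed enough to test, and 9 fell and 1 rose in stem cells, with a median log2 fold change of -0.43. Fcgrt, the heavy chain of the neonatal Fc receptor, fell by 1.17 ± 0.08 on the log2 scale, H2-T22 by 0.91 ± 0.10 and H2-Q1 by 1.97 ± 0.23, whereas Cd1d1, which presents lipids, rose by 1.06 ± 0.13. Among 15 peptide loading and trimming genes 11 fell and 1 rose. The chaperones and their partners Pdia3 (-0.94 ± 0.05), Calr (-0.95 ± 0.07), Hspa5 (-1.04 ± 0.08) and Sec61b (-1.28 ± 0.08), which serve protein folding and import in the endoplasmic reticulum at large, had the smallest adjusted p of that list. Of 9 proteasome activators and assembly factors 3 fell and 2 rose, and the fall was 0.44 ± 0.08 for Psme2, a subunit of the interferon-induced activator, and 0.35 ± 0.06 for the assembly factor Pomp.

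Interferon genes had no common direction under TMM scaling. Of 22 receptor and relay genes 6 rose and 6 fell with a median log2 fold change of 0.01, among them Usp18 (-1.99), which restrains interferon signalling, and the transcription factors Irf7 (-0.91) and Irf2 (0.32). Of 37 interferon-induced genes 26 were tested, 9 rose and 6 fell, with a median of 0.12. Zbp1, a sensor of nucleic acids, fell by 2.55 and the antiviral membrane protein Bst2 fell by 0.56, while the GTPases Gbp6 and Gbp8 rose by 1.51 and 1.84. Of 8 factors that bind class I and class II promoters 4 rose, including Rfx5 (0.47) and Rfxap (0.21), and 1 fell (Nfyc, -0.20). MHC class II genes went the other way from class I: 7 of 7 rose in stem cells, with a median log2 fold change of 1.08, 1.42 for Ciita, the class II transactivator, and 1.44 for the class II chain H2-Aa.

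Markers of other cell types differed between the populations. Summed markers of goblet, Paneth and enteroendocrine cells ran from 202.1 to 1354 CPM in stem cells and from 6608 to 16590 CPM in progenitors, and 12 of 12 fell in stem cells. Enterocyte markers summed to 757 to 2029 CPM in stem cells and 1944 to 6901 CPM in progenitors. T cell and intraepithelial lymphocyte markers summed to 7.045 to 14.34 CPM in stem cells and 2.791 to 7.143 CPM in progenitors, mostly from Lck and Itgae. Myeloid markers summed to 6.782 to 14.18 CPM in stem cells and 10.85 to 35.91 CPM in progenitors, mostly from Itgam, and markers of endothelium and stroma to 0 to 1.023 CPM in stem cells and 2.238 to 7.933 CPM in progenitors. Of 6 general epithelial markers 5 fell in stem cells, with a median log2 fold change of -0.28, and their sum was 6110 to 7678 CPM in stem cells and 7364 to 10830 CPM in progenitors. The part of these markers in the class I difference was not tested.

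The size of the difference depended on scaling. On deposited TPM values, tested with limma, the median of all genes moved to 0.27 from the 0.02 of TMM scaling, and 73.3% of the 13088 genes tested passed, 7617 higher and 1981 lower. On that scale 4 of the 10 genes passed, 3 lower and 1 higher. H2-D1, Psmb9 and Psmb10 were lower on that scale, the log2 fold change of H2-K1 was -0.11 (adjusted p = 0.0582), and the signs of B2m (0.02), Tap1 (0.03) and Tap2 (0.04) turned. Tapbp was higher there by 0.24 (limma adjusted p = 0.00198). Taken from the median of all genes on that scale, the differences were -0.37 for H2-K1, -0.47 for H2-D1, -0.24 for B2m, -0.02 for Tapbp, -0.76 for Psmb9 and -0.52 for Psmb10, which lie within 0.1 of those under TMM scaling. The pathway lists moved with the scale too. On TPM 7 of the 16 further heavy chains were lower and 3 higher (median -0.14), and 7 of the 15 peptide loading and trimming genes were lower and 4 higher, where the sign of the median turned (0.05). Of the 9 proteasome activators and assembly factors 1 was lower and 7 were higher on TPM (median 0.19, below the 0.27 of all genes). Of the interferon receptor and relay genes 13 were higher and 2 lower on TPM, and of the interferon-induced genes 11 were higher and 3 lower, on a scale where most of all genes were higher. The 7 class II genes tested were higher on both scales.

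**Figure D3:**
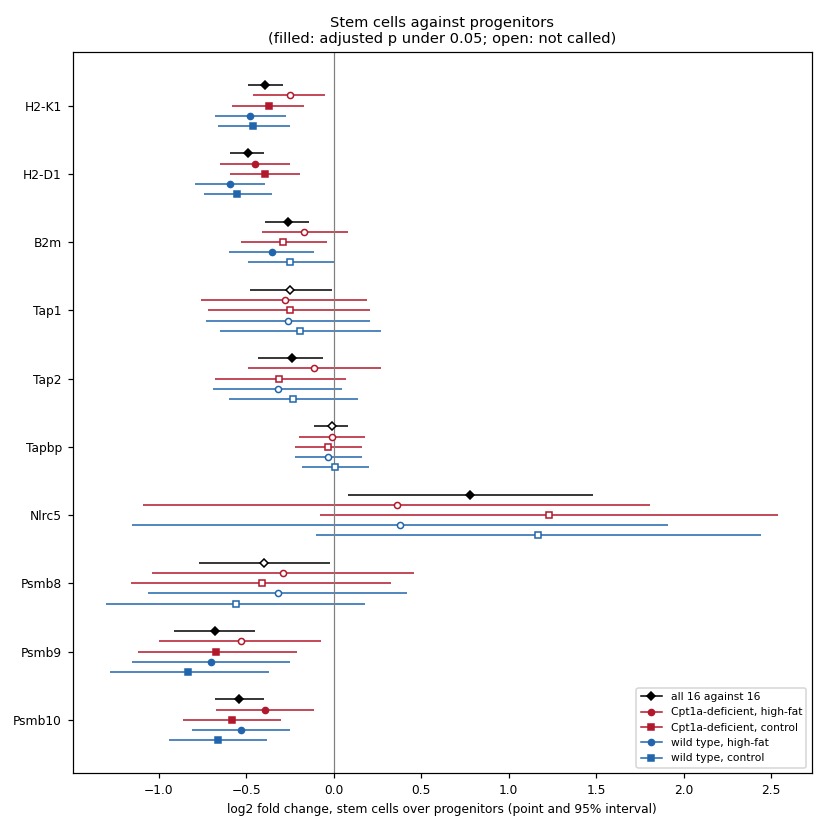
Log2 fold changes of stem cells over progenitors with 95% intervals, for all 16 against 16 libraries and for each genotype and diet with 4 against 4. Filled symbols passed an edgeR adjusted p of 0.05. H2-D1 passed in each genotype and diet, Tapbp sat near 0 throughout under TMM scaling, and Nlrc5 had the widest intervals.

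The same comparison within each genotype and diet, with 4 against 4 libraries, gave 2 genes lower in deficient mice on the high-fat diet and 4 in deficient mice on the control diet. It gave 5 genes lower in wild-type mice on the high-fat diet and 4 in wild-type mice on the control diet, and 17.3%, 19.5%, 20.1% and 22% of all genes were lower in these comparisons, in the same order (31.4%, 36.8%, 37.3% and 41.4% passed in either direction). H2-D1 and Psmb10 were lower in stem cells in all 4 of them. H2-K1 did not pass in deficient mice on the high-fat diet, where its 4 stem cell libraries held 453.2, 374.6, 358.9 and 400 CPM and its 4 progenitor libraries 475.2, 447.3, 485.3 and 480.9 CPM. The difference of the genotype effect between populations was 0.16 ± 0.10 for H2-K1 and did not pass either (edgeR adjusted p = 1).

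Within groups, Psmb8 differed between libraries in a repeated way. In each group 2 libraries had more Xist than Ddx3y counts and 2 fewer. These are also the first and the last 2 columns of each group, and the columns name no sex, so sex and column order cannot be told apart. Psmb8 measured 98.6 to 268.9 CPM with a median of 167.5 in the 16 libraries with more Xist, against 62.75 to 237.4 CPM with a median of 94.51 in the other 16. Its mean was higher in the libraries with more Xist in 8 of 8 groups, by 1.14 to 2.3 times, and their values did not overlap in 7. In wild-type progenitors on the high-fat diet, for instance, they held 268.9 and 158.7 CPM against 101.2 and 95.61 CPM. How many of all genes separate in this way was not computed, and 2 against 2 libraries can stand apart by chance. The split is thus not shown to be particular to these genes. The other members of the set showed it to differing extents. Psmb9 was higher in 8 of 8 groups too, by 1.02 to 1.65 times, with no overlap in 3. H2-K1 and Tap1 were higher in 7 of 8 groups, by 0.955 to 1.24 and 0.874 to 1.68 times. The other 6 genes were higher in 6 of 8 groups each, among them Tap2 by 0.937 to 1.79 times and Psmb10 by 0.896 to 1.33 times, both without overlap in 5 groups, and H2-D1 by 0.89 to 1.19 times. With a term for this split, which was planned as an alternative, Psmb8 was lower in stem cells by a log2 fold change of -0.41 ± 0.10 (edgeR adjusted p = 0.000845) and Tap1 by -0.25 ± 0.10 (edgeR adjusted p = 0.0403).

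Whether a high-fat diet moved the class I genes was examined within each population. In none of the comparisons of high-fat with control diet did any of the 9 genes tested pass in edgeR, Nlrc5 being too low to test. With 4 against 4 libraries, 0.0645% of all genes passed in deficient and 0.25% in wild-type stem cells, 0.313% in deficient and 0.0883% in wild-type progenitors, and 0 to 5 of the 9 genes had an unadjusted p under 0.05, as did 4.71% to 11.7% of all genes. Yet the values leaned one way. In stem cells of both genotypes together, 9 of 9 genes had a negative log2 fold change with a median of -0.17, against 0.01 over all genes, of which 47.3% were negative. Of the 9, 3 had an unadjusted p under 0.05, as did 11.9% of all genes, of which 0.959% passed. DESeq2 and limma also gave 0 of the 9.

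Tapbp had the smallest adjusted p in stem cells. It measured 225 to 301 CPM with a median of 245 in stem cells on the high-fat diet, against 253 to 356 CPM with a median of 287 on the control diet, with overlapping libraries. This was a log2 fold change of -0.22 ± 0.07 (edgeR adjusted p = 0.16). H2-D1 measured 601 to 739 CPM with a median of 642 on the high-fat diet, against 653 to 907 CPM with a median of 749 on the control diet (-0.21 ± 0.07, edgeR adjusted p = 0.22). The widest interval was that of Psmb8, with a log2 fold change of -0.24 ± 0.25.

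Progenitors on the high-fat diet gave the same count, 0 of 9 genes, with 9 of 9 negative, a median of -0.23 against 0.00 over all genes, and 6 genes at an unadjusted p under 0.05, as were 11.3% of all genes. Here 0.891% of all genes passed, while DESeq2 called 2 of the 9 lower (H2-K1 and Tapbp) and limma 1 (Psmb10). H2-K1 measured 447 to 561 CPM with a median of 512 on the high-fat diet, against 499 to 694 CPM with a median of 590 on the control diet, and libraries overlapped. The log2 fold change of H2-K1 was -0.18 ± 0.05 (edgeR adjusted p = 0.135), and that of Tapbp was -0.23 ± 0.06 (edgeR adjusted p = 0.121).

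Among the other genes of the pathway, Fcgrt rose by 0.58 ± 0.10 on the log2 scale in stem cells on the high-fat diet (edgeR adjusted p = 0.0047) and the interferon-induced gene Oasl2 fell by 0.72 ± 0.16 (adjusted p = 0.0291). In progenitors H2-Q10, a nonclassical class I gene whose reads may be shared with H2-Q7 and H2-K1, fell by 0.81 ± 0.18 (edgeR adjusted p = 0.0378). None of the 7 MHC class II genes passed, with median log2 fold changes of -0.89 in stem cells and -1.11 in progenitors, and the interferon-induced genes had medians of -0.42 in stem cells and -0.39 in progenitors. Markers of mature cells moved with the diet in stem cells, where 2 of 8 enterocyte markers and 3 of 10 tested goblet, Paneth and enteroendocrine markers rose, and in progenitors, where 1 of 8 enterocyte markers rose. Summed enterocyte markers were 1510 to 2029 CPM in deficient stem cells on the high-fat diet, against 857.7 to 1006 CPM in deficient ones on the control diet. In wild-type stem cells they were 926.6 to 1619 CPM on the high-fat diet, against 757 to 1142 CPM on the control diet. Their part in the class I values was not tested.

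Loss of Cpt1a, which admits long-chain fatty acids to mitochondria, was compared with wild type in the same way. With 4 against 4 libraries 0 of 9 genes passed in each population and diet, where 0.443% (stem cells, high-fat), 0.242% (stem cells, control), 0.706% (progenitors, high-fat) and 0.257% (progenitors, control) of all genes did. In these comparisons 0 to 5 of the 9 had an unadjusted p under 0.05, as did 4.73% to 10.6% of all genes, and DESeq2 and limma called 0. In stem cells on both diets 0 of 9 genes passed, 9 of 9 were negative, and the median log2 fold change was -0.16 against 0.00 over all genes, with 0.83% of all genes called. One of the 9, Tapbp, had an unadjusted p under 0.05 (-0.23 ± 0.07, edgeR adjusted p = 0.198), as did 7.01% of all genes, and neither DESeq2 nor limma called any of them. Without library d of the wild-type high-fat group Tapbp passed (-0.27, edgeR adjusted p = 0.0467).

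In progenitors 1 of the 9 genes passed, H2-K1, with 1.21% of all genes called. Deficient libraries held 475.2, 447.3, 485.3 and 480.9 CPM on the high-fat diet and 510.8, 603.7, 498.6 and 506.7 CPM on the control diet. Wild-type libraries held 557.7, 561, 539 and 554.7 CPM on the high-fat diet and 575.9, 694.2, 638.5 and 605.5 CPM on the control diet. On the high-fat diet every deficient library was below every wild-type library, and on the control diet 1 deficient library reached into the wild-type range. The share of all genes without overlap is not given for these groups, so this only describes H2-K1. The log2 fold change over both diets was -0.23 ± 0.05 (edgeR adjusted p = 0.0333). General epithelial markers were also lower in value. Their sum was 7364 to 8892 CPM in deficient and 9081 to 9971 CPM in wild-type progenitors on the high-fat diet, without overlap, and 8708 to 9819 CPM in deficient and 9561 to 10830 CPM in wild-type ones on the control diet, with overlap. Over both diets 6 of 6 epithelial markers were negative, with a median log2 fold change of -0.16, without passing in edgeR, while 1 of 8 enterocyte markers rose. Their part in the H2-K1 difference was not tested.

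This call was fragile. It was lost without any 1 of 11 of the 16 libraries, with log2 fold changes of -0.20 to -0.23 and edgeR adjusted p of 0.0501 to 0.0899. These were deficient libraries a, b and c on the high-fat diet and a, c and d on the control diet, and wild-type libraries a, b and d on the high-fat diet and b and c on the control diet, lettered in column order. With no filter on low counts the adjusted p was 0.121, and the summed heavy chains gave -0.22 ± 0.06 (edgeR adjusted p = 0.0956). DESeq2 called 3 genes lower, H2-K1, Tap2 (-0.36) and Tapbp (-0.21), whereas limma on TPM called none. The 9 genes had a median of -0.23 against 0.01 over all genes, and 6 had an unadjusted p under 0.05, as did 11.2% of all genes. Irf1, an interferon-induced transcription factor of class I promoters, fell by 0.30 ± 0.07 in the same comparison (edgeR adjusted p = 0.0304).

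**Figure D4:**
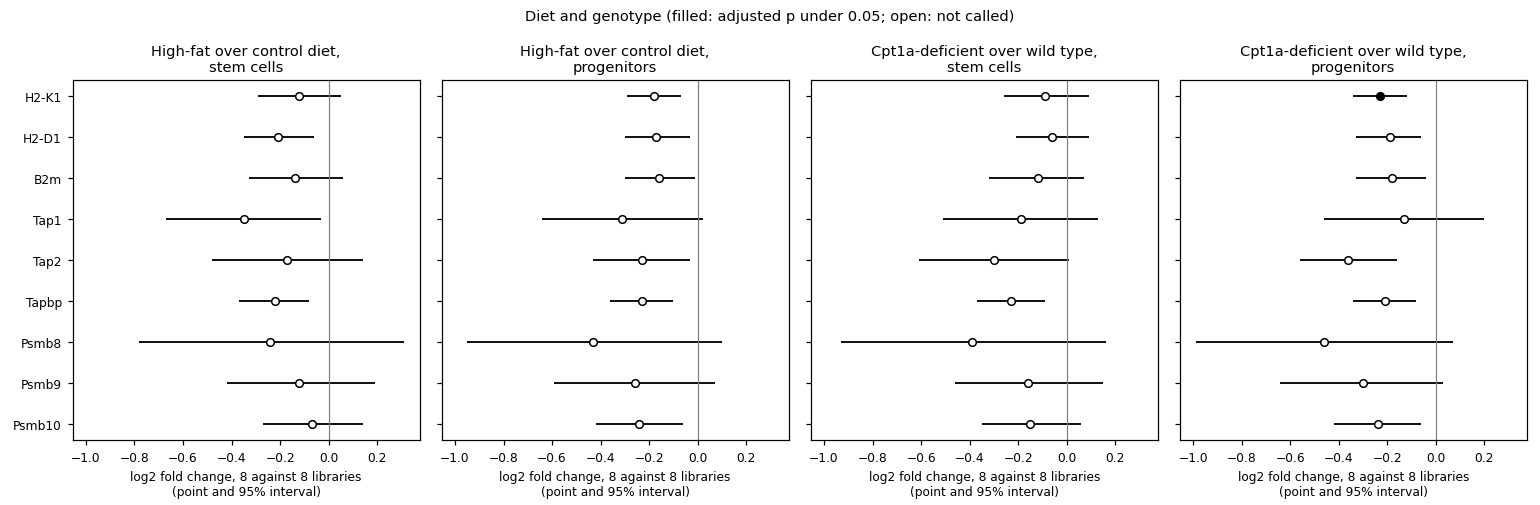
Log2 fold changes with 95% intervals of 9 genes for high-fat over control diet and for Cpt1a-deficient over wild type, 8 against 8 libraries in each panel, stem cells and progenitors apart. Every point lies below 0, and H2-K1 in deficient progenitors (-0.23) is the filled one that passed.

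Diet and genotype leaned the same way, and the group with both changes had the lowest means. Deficient cells on the high-fat diet had the lowest of the 4 group means for 9 of 9 genes in stem cells and 9 of 9 in progenitors. For H2-K1 in stem cells this was nearly a tie, 396.7 CPM against 396.8 CPM in wild-type cells on the high-fat diet. Wild-type cells on the control diet had the highest for 8 of 9 in stem cells and 9 of 9 in progenitors. How often all genes show this order was not computed. The 9 genes also vary together within groups (median Pearson correlation 0.59), so they are not 9 separate signals. After the group means were seen, the pair of extremes was compared in a test added for it, 4 against 4 libraries, so its p-values do not allow for that choice.

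In progenitors 5 of 9 genes were lower in deficient mice on the high-fat diet than in wild-type mice on the control diet, namely H2-K1, H2-D1, Tap2, Tapbp and Psmb10, and 1.03% of all genes were lower (2.36% passed in either direction). H2-K1 held 475.2, 447.3, 485.3 and 480.9 CPM in deficient mice on the high-fat diet and 575.9, 694.2, 638.5 and 605.5 CPM in wild-type mice on the control diet, without overlap. The log2 fold change of H2-K1 was -0.41 ± 0.07 (edgeR adjusted p = 0.00316). Tapbp held 238.1, 224, 250.3 and 238.4 CPM in deficient mice on the high-fat diet and 280.1, 324.6, 361.4 and 322.7 CPM in wild-type mice on the control diet, again without overlap (-0.43 ± 0.09, edgeR adjusted p = 0.00921). Tap2 held 28.83, 23.59, 25.59 and 27.63 CPM in the deficient and 38.85, 38.03, 40.8 and 41.29 CPM in the wild-type libraries (-0.58 ± 0.14, edgeR adjusted p = 0.0268). The share of all genes without overlap is not given for this pair of groups, so lack of overlap only describes single genes here and below.

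The median log2 fold change of the 9 genes was -0.44 there, against 0.00 over all genes. H2-K1 and Tapbp passed with each of the 8 libraries left out in turn. H2-D1 (-0.36 ± 0.09, edgeR adjusted p = 0.0385) passed in 2 of these 8 fits, without deficient library d or wild-type library a (adjusted p up to 0.127 in the others). Tap2 passed in 3, without deficient library a or d or wild-type library b (up to 0.102), and Psmb10 (-0.49 ± 0.12, edgeR adjusted p = 0.0388) in 1, without wild-type library a (up to 0.16). B2m (-0.34 ± 0.10, edgeR adjusted p = 0.0802) passed without library c of either group. Psmb8 had the largest log2 fold change, -0.89 ± 0.35, with no overlap between 142.3, 140.5, 93.42 and 98.11 CPM in deficient and 213.9, 255.3, 172.7 and 237.4 CPM in wild-type libraries, but did not pass (edgeR adjusted p = 0.242). With the Xist term it did (-0.93 ± 0.21, edgeR adjusted p = 0.0267).

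In stem cells 1 of 9 genes was lower in that pair of groups, Tapbp, with 0.919% of all genes lower (2.05% called in either direction). It held 227.5, 251.1, 227.5 and 238.6 CPM in deficient mice on the high-fat diet and 340.1, 355.9, 282.6 and 316.9 CPM in wild-type mice on the control diet. Tapbp had a log2 fold change of -0.45 ± 0.10 (edgeR adjusted p = 0.0133), and it passed in 7 of 8 fits with a library left out, the exception being library a of the wild-type control group (adjusted p = 0.0504). On TPM in limma it did not (adjusted p = 0.0569). The median of the 9 genes was -0.27 against 0.01 over all genes.

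Further genes of the pathway moved in this pair of groups. Tapbpl, a relative of tapasin that edits peptides, fell by 0.53 ± 0.09 on the log2 scale in progenitors (edgeR adjusted p = 0.0026), and H2-Q10 fell by 1.38 ± 0.26 (adjusted p = 0.00481). Irf1 fell by 0.57 ± 0.09 in progenitors (edgeR adjusted p = 0.00154) and by 0.52 ± 0.13 in stem cells (edgeR adjusted p = 0.0378). In stem cells Oasl2 fell by 1.19 ± 0.22 and Fcgrt rose by 0.85 ± 0.14 (edgeR adjusted p = 0.0055 and 0.00151). The constitutive core proteasome had 0 of 14 subunits called in either population, with median log2 fold changes of 0.12 in stem cells and -0.08 in progenitors.

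Markers of cell types moved in the same pair of groups. In progenitors general epithelial markers summed to 7364 to 8892 CPM in deficient mice on the high-fat diet and 9561 to 10830 CPM in wild-type mice on the control diet, without overlap. Of the 6 markers 6 were negative, with a median log2 fold change of -0.22, and 1 passed. Enterocyte markers in progenitors summed to 4458 to 6901 CPM in deficient mice on the high-fat diet and 3131 to 3914 CPM in wild-type mice on the control diet, and 1 of 8 rose. In stem cells enterocyte markers summed to 1510 to 2029 CPM in deficient mice on the high-fat diet and 757 to 1142 CPM in wild-type mice on the control diet, again without overlap. There 1 of 8 enterocyte markers and 2 of 10 goblet, Paneth and enteroendocrine markers rose, 1 of 8 crypt base stem cell markers fell, and the epithelial markers had a median log2 fold change of -0.08. The part of these markers in the class I values was not tested.

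Whether the effects depended on each other was tested directly. For the diet by genotype interaction in stem cells and in progenitors, and for the difference of the diet effect and of the genotype effect between populations, 0 of the members tested passed, had an unadjusted p under 0.05, or were called by DESeq2 or limma. In these 4 tests edgeR called 0% of all genes, and 3 to 5.24% of them had an unadjusted p under 0.05. For H2-K1 the diet by genotype interaction was 0.02 ± 0.10 in progenitors, with a 95% interval from -0.20 to 0.24, and 0.17 ± 0.17 in stem cells, from -0.17 to 0.52. For Psmb9 the intervals were wider, from -0.74 to 0.59 in progenitors and from -0.66 to 0.54 in stem cells.

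The order of group means showed how far single genes separated the groups. For H2-K1 the 4 progenitor groups stood above the 4 stem cell groups. Its mean was 472.2 ± 17.1 CPM in deficient progenitors on the high-fat diet, 530 ± 49.4 in deficient progenitors on the control diet, 553.1 ± 9.73 in wild-type progenitors on the high-fat diet and 628.5 ± 50.7 in wild-type progenitors on the control diet (SD, n = 4 each). Its stem cell means followed at 396.7 ± 41.3 CPM in deficient mice on the high-fat diet, 409 ± 64.3 in deficient mice on the control diet, 396.8 ± 51.6 in wild-type mice on the high-fat diet and 458.2 ± 52.6 in wild-type mice on the control diet. In this order 2 pairs of neighbours did not overlap, wild-type progenitors on the 2 diets, and deficient progenitors on the 2 diets. For each of the other 9 genes every group overlapped with the next. The share of all genes with such gaps was not computed.

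How the genes varied together was described within groups, by the log2 CPM of each of the 32 libraries after its group mean was subtracted. Over 45 pairs of genes the Pearson correlation had a median of 0.54 and ran from -0.09 (B2m with Tapbp) to 0.87 (Psmb8 with Psmb9). The immunoproteasome subunits formed a tight block, with 0.86 for Psmb9 with Psmb10 and 0.82 for Psmb8 with Psmb10, and Tap2 joined it at 0.84 with Psmb8. The heavy chains H2-K1 and H2-D1 correlated at 0.85 with each other. Tap1 and Psmb9, whose promoter windows overlap, correlated at 0.69, below Tap1 with Tap2 (0.73) and Tap1 with Psmb8 (0.71). The part of the shared window was not tested. Nlrc5 was the most weakly tied, from 0.04 with B2m to 0.57 with H2-D1, at 1 to 26 counts per library. All points share their library's depth and quality and, in each group, the Xist split.

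**Figure D5:**
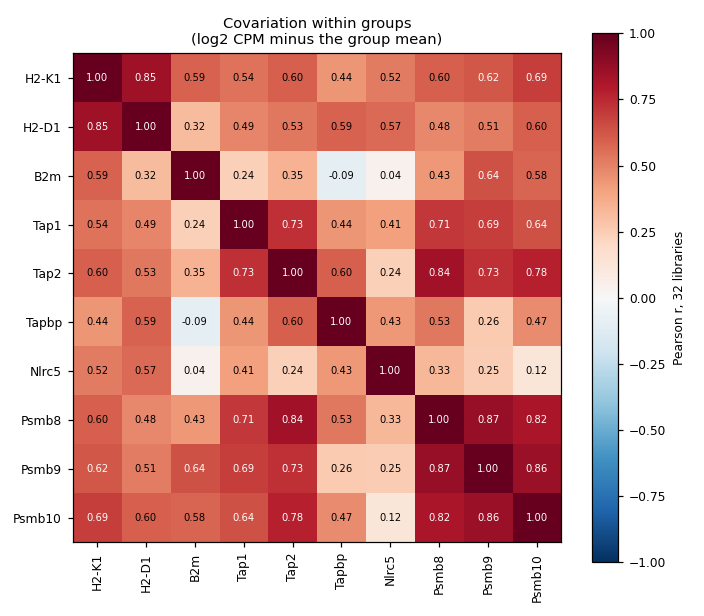
Pearson correlations between the 10 genes over 32 libraries, computed on log2 CPM minus the group mean, with red for positive and blue for negative values. Off the diagonal, the block of Psmb8, Psmb9 and Psmb10 (0.82 to 0.87), the H2-K1 with H2-D1 pair (0.85) and Tap2 with Psmb8 (0.84) are the darkest.

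Of 9606 genes with a mean log2 CPM of at least 3, the 10 outside the set that followed its mean most closely in the same 32 libraries were Bysl (r = 0.87), Slc25a1 (0.86), Tapbpl (0.85), Elovl1 (0.84), Cndp2 (0.82), Ppif (0.81), H2-Eb1 (0.81), Fdps (0.80), H2-Ab1 (0.80) and Irgm1 (0.79). Tapbpl acts in peptide editing, H2-Eb1 and H2-Ab1 are class II chains, and Irgm1 is an interferon-induced GTPase. Slc25a1 exports citrate from mitochondria, and Elovl1 and Fdps make very long fatty acids and isoprenoids. When Nlrc5 was left out of the mean, Elovl1 ranked first (0.86). H2-Eb1, H2-Ab1, Fdps and Irgm1 then dropped to ranks 13, 17, 22 and 43.

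Some values rest on shared annotation. Tap1 and Psmb9 overlap on opposite strands over 212 exonic bases, 3.87% of those of Tap1 and 5.79% of those of Psmb9, in GENCODE M21. Exons on the opposite strand also cover 24.9% of Tapbp (Gm19412), 14.1% of Tap2 (Gm15821) and 14.7% of Psmb8 (Gm20496). No strand setting of the counting is given in the sources used here, and without strand, reads from such partners cannot be told apart.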

How the data were processed

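The deposited tables hold expected counts per gene, which are estimated read counts rounded to whole numbers, and log2 values, the log2 of TPM plus 1 as deposited by the authors. The tools STAR 2.5.3a, RSEM 1.3.0 and SAMtools 1.3 and the build mm10 are named per the submitters' processing notes, which give no role or order. Columns give only each library's group, neither sex nor replicate number. Libraries are therefore lettered a to d in column order, and models hold group means only.

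Genes were tested in edgeR 4.0.16 on the counts (R 4.3.3) scaled by TMM, filtered by filterByExpr (minimum count 10) and fitted with robust quasi-likelihood. P-values were adjusted by Benjamini-Hochberg over all genes tested, with a threshold of 0.05. All 32 libraries were fitted together to compare populations (13088 genes tested), and stem cells (12409 genes) and progenitors (12460 genes) apart for diet and genotype. An SE is the size of the log2 change divided by the root of its F statistic. Alternatives were median-ratio size factors, DESeq2 1.42.0, no filter, limma 3.58.1 on the deposited log2 values, an Xist term, a fit of the compared libraries alone, and each library left out. Fits within the Xist split, the subunit ratios and the comparison of both changes together were added after the data were seen. The fits were tested on simulated data first. Replicates differed by more than sampling noise, with correlations of 0.9607 to 0.977 in log2 CPM.

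The genes and lists were chosen with earlier results of these data known. All 10 genes were named, and from each list up to 4 with the smallest adjusted p. A gene name table gave symbols, and GENCODE M21 on GRCm38 gave positions. The precision of single counts is limited by the library totals, and PCR duplicates were not separable.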

Additional observations from a re-analysis of the deposited data

Results flagged for a closer look

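Among 80 sets of 4 libraries, 10 genes in 8 groups, 4 held a library far from the other 3 by Dixon's ratio, and chance gives about 1 in 20. All 4 were library b of a group on the control diet, and all were high. H2-K1 stood at 604 CPM in deficient progenitors, against 499 to 511 CPM in the other 3 libraries. H2-D1 stood at 862 CPM in wild-type stem cells, against 745 to 758 CPM. Tap2 stood at 34.2 CPM in deficient stem cells, against 24.3 to 26 CPM. Nlrc5 stood at 1.59 CPM in deficient progenitors, against 0.343 to 0.523 CPM, a difference of few counts.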

How the results depend on the processing

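No paired analysis was possible because the columns carry no replicate number. Median-ratio size factors left every count of members called within 1.5 times the reported one. For stem cells against progenitors limma on TPM called 4 members in place of 7, and within genotype and diet 0 (deficient, high-fat), 2 (deficient, control), 2 (wild type, high-fat) and 2 (wild type, control). In deficient cells on the high-fat diet DESeq2 and the Xist term each called 4 and no filter 1, in place of 2. For diet in progenitors DESeq2 called 2 and limma 1, in place of 0. For Cpt1a loss in progenitors DESeq2 called 3, and no filter, limma and each side of the Xist split 0, in place of 1. For both changes together in stem cells limma called 0 in place of 1.

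With each library left out in turn, counts ran from 6 to 8 for stem cells against progenitors. Within genotype and diet they ran from 1 to 4 (deficient, high-fat), 3 to 5 (deficient, control), 3 to 6 (wild type, high-fat) and 4 to 5 (wild type, control). They ran from 0 to 1 for Cpt1a loss in progenitors and in stem cells, for diet in deficient progenitors and for both changes together in stem cells, and from 2 to 4 for both together in progenitors. Signs turned between populations on TPM for B2m (0.02), Tap1 (0.03), Tap2 (0.04) and Tapbp (0.24), for Tapbp in the libraries with more Xist (0.05) and in 4 fits with a library left out (-0.03 to 0.01), and for Tap1 under Cpt1a loss in stem cells with less Xist (0.07). The cause was not tested. Depth limits what can be said of Nlrc5, at 1 to 26 counts per library.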
